A study of Homo sapiens with 6 samples.

Results

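The genes described here are the transcriptional coactivators YAP1 and WWTR1 (the gene of TAZ), their DNA-binding partner TEAD1, and 7 genes known as classic targets or partners of the pair, namely CCN1, CCN2, ANKRD1, AMOTL1, AMOTL2, LATS2 and AJUBA. They were taken by symbol from a table of 28265 genes, and all 10 were found and passed the filter on low counts that left 14533 genes for testing. The groups were Huh7 cells transduced with a lentiviral vector expressing LHX2, a LIM-homeodomain transcription factor, and Huh7 cells transduced with a control vector, each with 3 RNA libraries taken 48 h after transduction. Huh7 is an established human hepatocellular carcinoma line, and the label of the control cells also calls them parental. The promoter that drives LHX2 is not given in the sources used here. Both groups were transduced with a lentiviral vector, so an effect of transduction itself cannot be seen in this comparison. Whether every cell took up a vector cannot be told from these counts. Nothing in the labels says whether each replicate was its own culture, and p-values accordingly measure only the variation among these libraries, which could be technical.

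YAP and TAZ are the effectors of the Hippo pathway. When the kinases encoded by STK3 and STK4 activate the LATS kinases, YAP and TAZ are phosphorylated and kept in the cytoplasm. When that cascade is quiet, they enter the nucleus and bind TEAD proteins, which carry no strong activation domain of their own, and switch on genes of growth, matrix and cytoskeleton. In the liver the pathway restrains organ size, and high YAP activity is a feature of many hepatocellular carcinomas. Several targets, including LATS2 and AMOTL2, encode proteins that restrain YAP and so form negative feedback. Phosphorylation and location of the YAP and TAZ proteins, where most of this control takes place, are not seen in RNA counts.

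Of the 10 genes 8 rose with LHX2, 0 fell and 2 did not pass in edgeR's quasi-likelihood test, with the threshold at 0.05 after Benjamini-Hochberg adjustment over all genes tested. Over all genes tested, 16.6% were called higher and 32.5% were called in either direction, and the members were chosen with earlier results of these data known. At an unadjusted p under 0.05, 9 were higher and 0 lower, and DESeq2 called 8 higher and 0 lower. The changes covered a wide range, with ANKRD1 4.51-fold higher, CCN1, AMOTL2 and AJUBA between 1.55-fold and 1.69-fold higher, and TEAD1, LATS2, WWTR1 and CCN2 between 1.17-fold and 1.23-fold higher. YAP1 and AMOTL1 were the members that did not pass. The median log2 fold change of the 10 was 0.29, beside 0.01 over all genes tested. In 8 of the 10 genes every LHX2 library lay above every control library, a separation in that direction seen in 22.9% of all genes tested (44.9% in either direction).

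**Figure D1:**
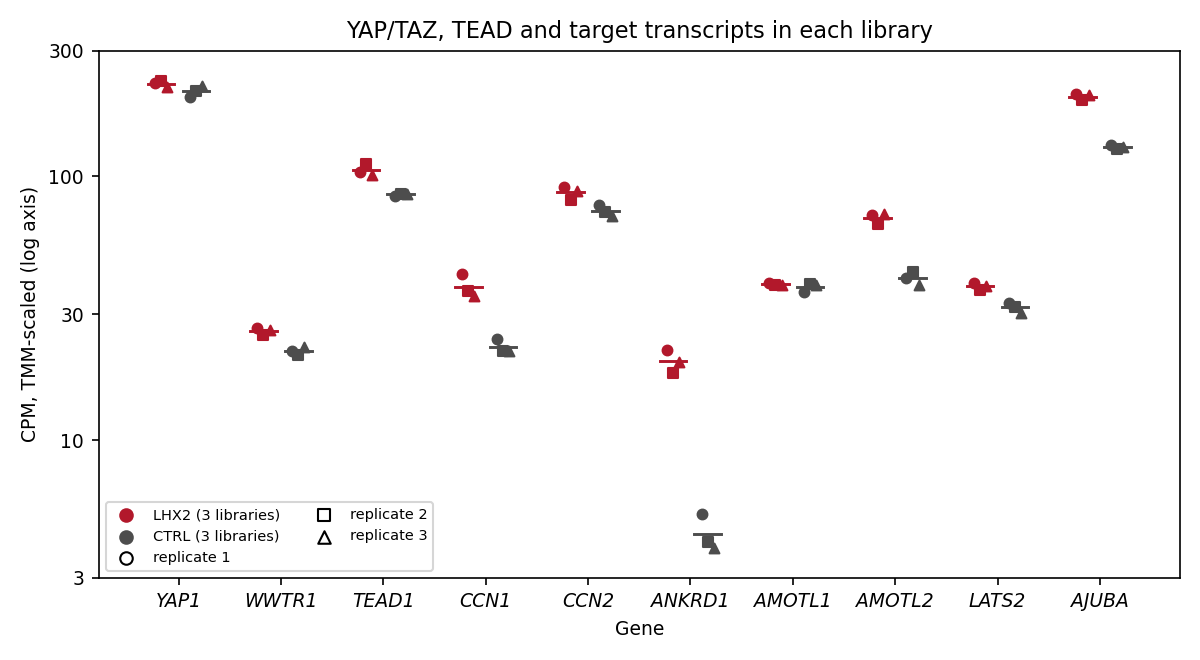
CPM (counts scaled to library size by TMM, log axis) of the 10 genes in each library, LHX2 left of control, with a line at each group mean and a marker shape for each replicate number. The groups stand apart in 8 genes, most widely in ANKRD1 (19.9 against 4.42 CPM on average), and overlap in YAP1 and AMOTL1.

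The libraries held 30029313 to 35194438 counts in the LHX2 group and 32625405 to 39653681 in the control group. LHX2 itself had 2535, 2427 and 3126 counts in LHX2 replicates 1 to 3 and 1, 2 and 1 in control replicates 1 to 3, in accord with the labels. Hepatocyte markers were abundant in both groups: all 10 were tested, and 2 rose (GPC3 and TF), 3 fell (TTR, SERPINA1 and HNF4A), beside 16.6% and 15.8% of all genes tested, and together they made up 46965 to 51264 CPM in LHX2 libraries and 50090 to 51452 CPM in control libraries. In bulk RNA a smaller number of cells with high expression and a lower level in every cell cannot be told apart, which holds for each value below. Fibroblasts are known for high levels of YAP/TAZ targets. Of 10 fibroblast markers 3 were tested and rose, namely COL1A2, LUM and PDGFRA, and the list summed to 68.0 to 73.5 CPM in LHX2 libraries against 35.3 to 38.4 CPM in control libraries. COL1A2 made up most of that difference, with 36.8 ± 1.21 CPM in LHX2 libraries and 9.26 ± 0.753 CPM in control libraries (SD, n = 3 each). COL3A1 and PDGFRB were too low to test and lower in every LHX2 library, COL3A1 with 2, 2 and 4 counts in LHX2 libraries and 9, 7 and 8 in control libraries, and PDGFRB with 1, 1 and 2 counts in LHX2 libraries and 6, 10 and 6 in control libraries. COL1A1, also too low to test, had 8, 10 and 10 counts in LHX2 libraries and 9, 8 and 4 in control libraries. THY1 and POSTN had 0 counts in every library, and DCN and ACTA2 stayed under 0.1 CPM in each. PDGFRA did not pass without control replicate 3, and TF did not pass (0.021) once a trend in GC content and transcript length was removed. Of 5 leukocyte markers PTPRC and CD3E stayed under 0.1 CPM while CD68 and LYZ rose, with list sums of 610 to 677 CPM in LHX2 libraries against 469 to 499 CPM in control libraries. Of 5 endothelial markers 4 stayed under 0.1 CPM and PECAM1 was lower, a call lost with DESeq2, with replicate number as a block, and without LHX2 replicate 3 or control replicate 1 or 3. The list summed to 2.78 to 3.22 CPM in LHX2 libraries against 3.75 to 4.28 CPM in control libraries. The part of these markers in the results below was not tested.

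The coactivators changed little. YAP1 (chr11:102110447-102233424, GRCh38) had 226, 230.5 and 218 CPM in LHX2 libraries and 201, 211 and 219.5 CPM in control libraries. The lowest LHX2 library lay below the highest control library. The log2 fold change was 0.09 ± 0.04 (SE, edgeR adjusted p = 0.11, unadjusted p = 0.043), with a 95% interval of 0.0034 to 0.18. YAP1 passed when libraries were scaled by their totals alone (0.12, edgeR adjusted p = 0.026), and leaving out LHX2 replicate 3 gave 0.12 (adjusted p = 0.046). WWTR1, which encodes TAZ (chr3:149517235-149724788), had 26.5, 25.0 and 26.2 CPM in LHX2 libraries and 21.8, 21.0 and 22.5 CPM in control libraries. Its groups did not overlap, and it rose by 0.25 ± 0.06 on the log2 scale (SE, edgeR adjusted p = 6.0e-03).

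Per kilobase of the longest annotated transcript, YAP1 was by far the more abundant of the pair, at 41.6 ± 1.202 CPM per kb in LHX2 libraries and 39.0 ± 1.73 in control libraries (SD, n = 3 each). WWTR1 stood at 5.15 ± 0.154 and 4.33 ± 0.154 CPM per kb. TAZ transcripts thus made up 11.0% ± 0.515 of the length-scaled sum of both genes in LHX2 libraries and 9.99% ± 0.389 in control libraries (SD, n = 3 each). The longest transcript may not be the one that these cells express, and such levels depend on it.

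TEAD1 (chr11:12674421-12944737), a DNA-binding partner of YAP and TAZ, had 104, 111 and 101 CPM in LHX2 libraries and 84.1, 86.1 and 86.1 CPM in control libraries. The groups did not overlap, and the log2 fold change was 0.30 ± 0.04 (SE, edgeR adjusted p = 8.9e-05). Its paralogues moved by smaller or similar amounts. TEAD3 rose by 0.25 ± 0.07 (adjusted p = 0.015) and TEAD2 by 0.18 ± 0.05 (adjusted p = 0.017), but neither passed without LHX2 replicate 3 or without control replicate 2. TEAD4 differed by 0.15 ± 0.08 (adjusted p = 0.20, 95% interval -0.03 to 0.32). The 4 TEAD genes were all transcribed in these cells, and TEAD2 had the highest level per length, 15.1 ± 0.702 CPM per kb in LHX2 libraries and 13.3 ± 0.307 in control libraries, above TEAD1 at 12.4 ± 0.627 and 10.1 ± 0.136 (SD, n = 3 each). TEAD1 took 29.3% ± 1.28 of the length-scaled TEAD sum in LHX2 libraries and 27.7% ± 0.696 in control libraries. The sum itself was 42.5 ± 0.429 CPM per kb in LHX2 libraries and 36.4 ± 0.450 in control libraries. VGLL4, which competes with YAP for TEAD proteins, rose by 0.17 ± 0.04 (adjusted p = 5.0e-03). VGLL1, VGLL2 and VGLL3 had at most 12 counts in any library and were not tested. Of the 4 tested among these 7 TEAD and VGLL genes beside TEAD1, 3 rose and 0 fell in the edgeR test, with a median of 0.18. DESeq2 and an unadjusted p under 0.05 gave the same counts. Over all genes tested 16.6% were called higher and 15.8% lower.

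ANKRD1 and CCN2 are the targets whose promoters are best known for TEAD sites, so their RefSeq sequences (GRCh38.p14, minus strand of the genome, written 5′ to 3′) are shown from 250 bases before to 50 bases after the annotated start. Capitals mark the core TEAD motif GGAATG and, in ANKRD1, TGANTCA. The latter is looser than the strict motif of AP-1 factors, because it allows any central base.
CCN2, chr6:131951323-131951622: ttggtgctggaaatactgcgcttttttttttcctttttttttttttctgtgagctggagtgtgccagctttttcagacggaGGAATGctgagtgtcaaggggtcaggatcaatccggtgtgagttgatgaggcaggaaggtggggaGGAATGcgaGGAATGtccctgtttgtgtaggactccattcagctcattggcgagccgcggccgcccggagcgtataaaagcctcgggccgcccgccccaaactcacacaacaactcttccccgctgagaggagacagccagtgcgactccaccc
ANKRD1, chr10:90921038-90921337: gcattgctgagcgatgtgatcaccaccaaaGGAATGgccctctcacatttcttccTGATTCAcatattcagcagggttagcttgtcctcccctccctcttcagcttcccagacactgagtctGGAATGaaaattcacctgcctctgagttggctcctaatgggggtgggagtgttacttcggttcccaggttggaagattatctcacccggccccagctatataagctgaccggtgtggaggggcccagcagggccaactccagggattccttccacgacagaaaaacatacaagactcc

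With the start site counted as 0, the CCN2 promoter held GGAATG from -169 to -164, from -104 to -99 and from -95 to -90. The ANKRD1 promoter held it from -220 to -215 and from -128 to -123, with TGATTCA from -195 to -189 between them. Promoter sequences were matched for 8 members, and CCN1 and TEAD1 were not matched. GGAATG or its reverse complement was found in 4 of the 8 (ANKRD1, CCN2, LATS2 and YAP1), beside 11.0% of 11306 tested genes with a promoter of the same length and 12.6% of all 18931 promoters matched. In LATS2 the motif lay 9 to 14 bases after the start, and in YAP1 from -162 to -157. TGANTCA was found in ANKRD1 alone of the 8, beside 4.58% of tested genes. The homeodomain motif TAATTA (2.24% of tested genes) and the CArG box of SRF (1.03%) were in none of the 8 windows. Both strands were searched, and no 2 matches overlapped in these promoters. The annotated starts used for WWTR1 and AMOTL1 lie inside the gene range, so other starts of these genes are not covered. Of the members with GGAATG in the window, ANKRD1, CCN2 and LATS2 were called higher and YAP1 was not. Of those without it, AMOTL2, AJUBA and WWTR1 were called higher and AMOTL1 was not. Whether these motifs bear on the changes was not tested.

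**Figure D2:**
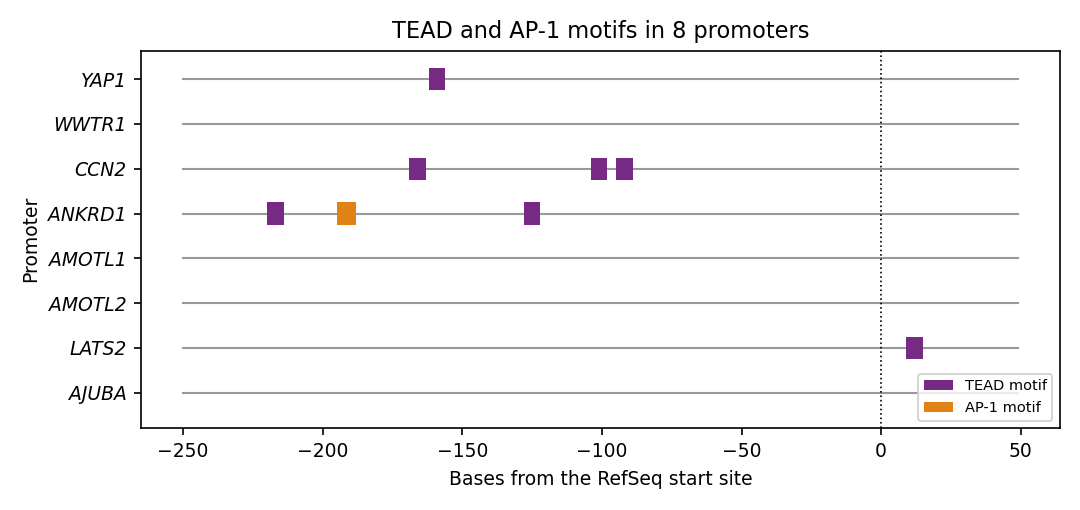
Position of the TEAD motif (GGAATG) and the loose AP-1 pattern (TGANTCA, any central base) in the promoters of 8 members, in bases from the RefSeq start site at 0. Each line is a 300-base window. CCN2 holds 3 TEAD motifs and ANKRD1 holds 2 with a match to the loose AP-1 pattern (TGATTCA) between them, while 4 of the windows hold neither.

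ANKRD1, a nuclear ankyrin repeat protein first described in heart muscle (chr10:90912096-90921087), gave the largest change of the 10. It had 21.9, 17.9 and 19.8 CPM in LHX2 libraries (658, 545 and 715 counts) and 5.26, 4.11 and 3.88 CPM in control libraries (171, 161 and 126 counts). Every LHX2 library was more than 3 times as high as any control library. The log2 fold change was 2.17 ± 0.11 (SE, edgeR adjusted p = 2.4e-09) with a 95% interval of 1.93 to 2.42, and it stood at rank 48 of the 14533 genes tested, counted from the largest rise. Its control values were also the least even of the 10 genes, with a coefficient of variation of 16.7%. Counting noise alone would give a coefficient of variation of 8.09%.

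CCN1 and CCN2 encode secreted matricellular proteins, formerly CYR61 and CTGF, that bind integrins and are the most used readouts of YAP/TAZ activity. CCN1 (chr1:85580761-85583950) had 42.6, 36.7 and 35.1 CPM in LHX2 libraries and 24.3, 21.7 and 21.8 CPM in control libraries. It rose 1.69-fold, by 0.75 ± 0.08 on the log2 scale (SE, edgeR adjusted p = 2.9e-06). CCN2 (chr6:131948176-131951372) had 91.6, 81.7 and 87.8 CPM in LHX2 libraries and 78.2, 73.5 and 70.5 CPM in control libraries. It rose 1.17-fold, by 0.23 ± 0.05 (adjusted p = 2.7e-03), and the gap between its lowest LHX2 and highest control library was small. Antisense genes overlap CCN2 and also YAP1, WWTR1, TEAD1, AMOTL1 and LATS2 in the GENCODE annotation. The strand setting of the authors' counting is not given in the sources used here, so reads of the members and of these genes cannot be told apart with certainty.

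The 2 CCN genes thus changed by unequal amounts. Within each library the count of CCN2 was 2.15, 2.23 and 2.50 times that of CCN1 in the LHX2 group and 3.22, 3.39 and 3.23 times in the control group. The mean log2 ratio was lower by 0.52 in LHX2 libraries, 1.19 ± 0.113 against 1.71 ± 0.0408 in control libraries (SD, n = 3 each). The groups did not overlap, and the two-sided exact permutation p of 0.10 is the smallest that 3 against 3 libraries can give (0.125 adjusted over the 5 ratios tested). Of the other CCN genes, CCN6 was tested and differed by 0.0079 ± 0.12 (SE, edgeR adjusted p = 0.97, 95% interval -0.25 to 0.26). CCN3 had at most 4 counts in any library, and CCN4 and CCN5 had 0 in every library.

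**Figure D3:**
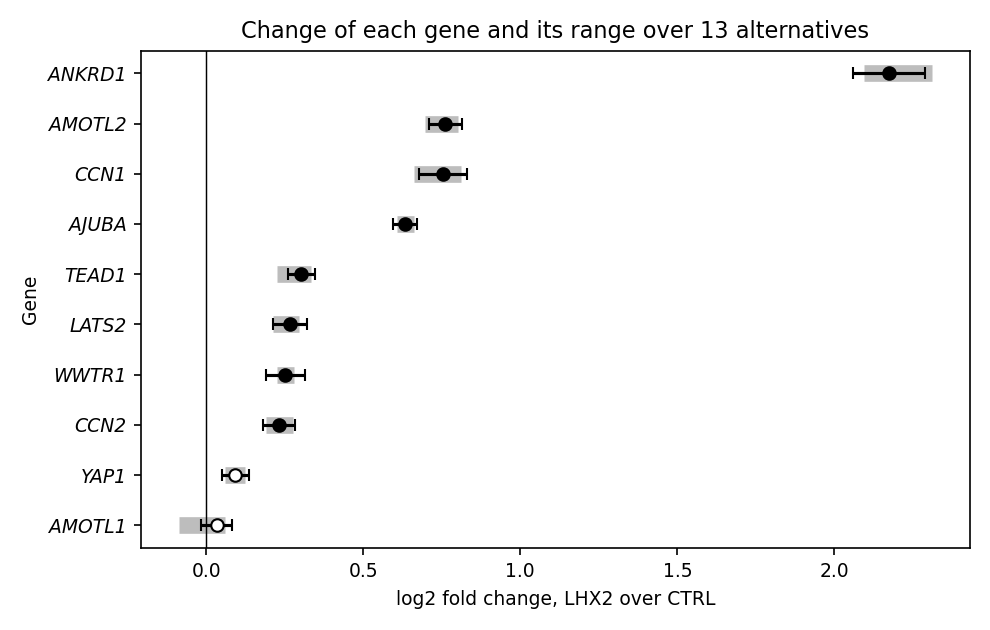
Log2 fold change of LHX2 over control for the 10 genes (points, with SE; filled where the edgeR adjusted p is under 0.05), ordered by size. The grey bars span the values under 13 alternative settings, and AMOTL1 is the gene whose bar crosses 0 (-0.087 to 0.06).

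The angiomotins are scaffold proteins of cell junctions that hold YAP in the cytoplasm and promote LATS activity. AMOTL2 (chr3:134355345-134375417) had 71.2, 65.7 and 72.2 CPM in LHX2 libraries and 41.3, 43.2 and 38.8 CPM in control libraries. It rose 1.69-fold, by 0.76 ± 0.05 on the log2 scale (SE, edgeR adjusted p = 5.6e-08). AMOTL1 (chr11:94706460-94876748) had 39.6, 38.6 and 38.8 CPM in LHX2 libraries and 36.4, 39.0 and 38.9 CPM in control libraries, and the groups overlapped. It differed by 0.03 ± 0.05 (adjusted p = 0.65), with a 95% interval of -0.07 to 0.14 that leaves out the change of AMOTL2. The AMOTL2 to AMOTL1 count ratio was 1.80, 1.70 and 1.86 in LHX2 libraries and 1.14, 1.11 and 0.998 in control libraries, without overlap (difference in log2 ratio 0.73, exact permutation p = 0.10, 0.125 adjusted over the 5 ratios).

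AMOT, the founding angiomotin and not one of the 10 genes, changed more than either. It had 74.9, 77.5 and 70.6 CPM in LHX2 libraries against 27.5, 26.4 and 26.5 CPM in control libraries, and rose by 1.47 ± 0.05 (SE, edgeR adjusted p = 1.9e-11). The length-scaled sum of the 3 angiomotin genes was 29.9 ± 0.487 CPM per kb in LHX2 libraries and 17.0 ± 0.484 in control libraries (SD, n = 3 each). AMOT took 34.0% ± 1.89 of that sum in LHX2 libraries and 21.5% ± 0.856 in control libraries. AMOTL1 took 14.5% ± 0.0918 in LHX2 libraries and 25.0% ± 1.16 in control libraries, and AMOTL2 was the most abundant in both, with 51.5% ± 1.98 in LHX2 libraries and 53.5% ± 1.41 in control libraries.

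**Figure D4:**
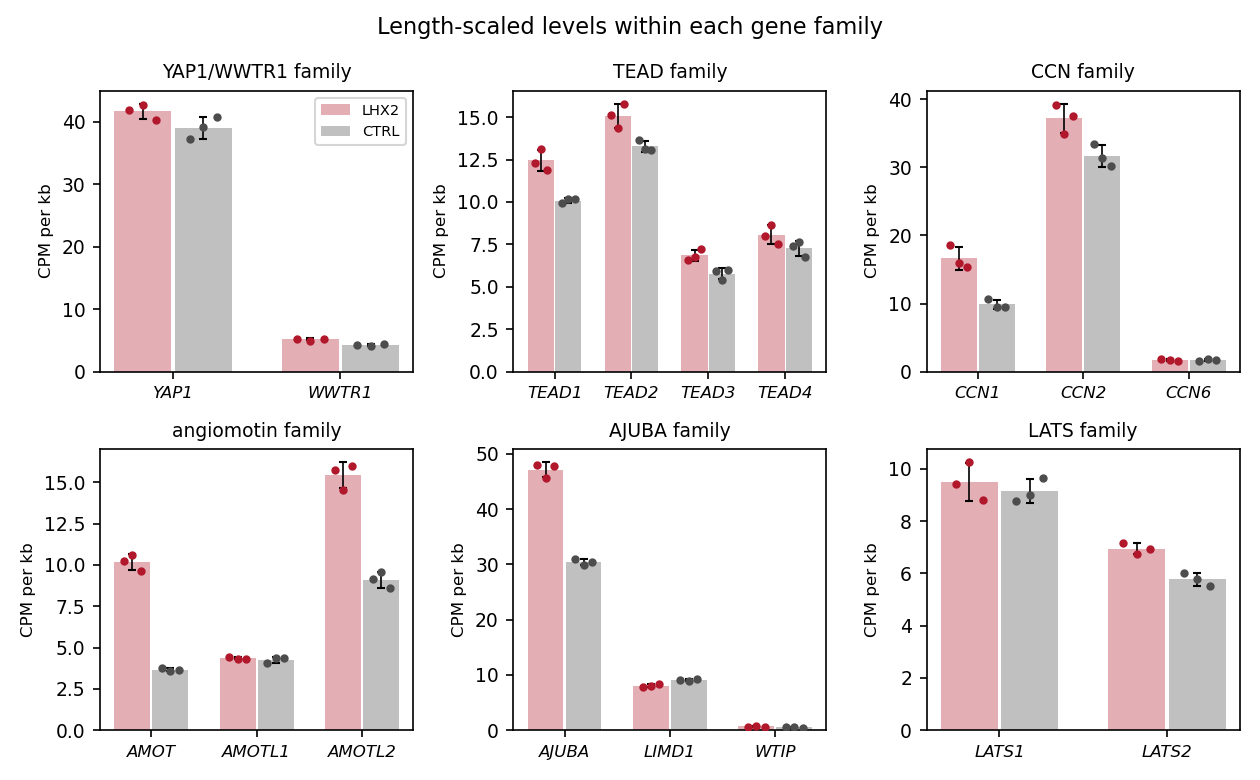
CPM per kb of the longest transcript for 9 members (ANKRD1 is not shown) and their paralogues (bars, means; error bars, SD; points, the 3 libraries of each group), LHX2 left of control. The libraries of the groups stand clearly apart in AJUBA, CCN1, AMOT and AMOTL2, while YAP1, TEAD4, AMOTL1, CCN6 and LATS1 did not pass the test.

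LATS2 (chr13:20973036-21061586), a kinase that phosphorylates YAP and is itself a YAP target, had 39.6, 37.1 and 38.3 CPM in LHX2 libraries and 33.2, 31.9 and 30.5 CPM in control libraries. The groups did not overlap and it rose by 0.27 ± 0.05 on the log2 scale (SE, edgeR adjusted p = 1.5e-03). Its paralogue LATS1, not known as a YAP target, differed by 0.05 ± 0.06 (adjusted p = 0.50, 95% interval -0.07 to 0.17). The LATS2 to LATS1 count ratio was 0.558, 0.482 and 0.577 in LHX2 libraries and 0.504, 0.471 and 0.419 in control libraries. These ranges overlapped (difference in log2 ratio 0.21, exact permutation p = 0.20, also 0.20 adjusted over the 5 ratios), so the kinases were not shown to differ in their response. The WWTR1 to YAP1 ratio and the TEAD1 to TEAD4 ratio did not overlap between the groups, with differences of 0.16 and 0.15 on the log2 scale (exact permutation p = 0.10, 0.125 adjusted, each).

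AJUBA (chr14:22971177-22982551), a LIM-domain scaffold of cell junctions that binds and inhibits LATS kinases, had 205, 195 and 203 CPM in LHX2 libraries and 132, 127 and 129.7 CPM in control libraries. It rose 1.55-fold, by 0.63 ± 0.04 on the log2 scale (SE, edgeR adjusted p = 1.2e-08). In the GENCODE annotation a protein-coding gene on the same strand, which had no row of its own, spans most of AJUBA, so how reads there were assigned is uncertain. AJUBA gave the largest gain of the 10 in CPM, 71.4 of the 189.7 CPM by which the group means of their sum differed, or 37.7%. The sum was 868, 839 and 840.3 CPM in LHX2 libraries and 657, 659 and 662 CPM in control libraries, with means of 849 and 659 CPM. AMOTL2 gave 15.1% of the gain, TEAD1 10.6%, and ANKRD1 and CCN1 8.15% and 8.18%. The related scaffold genes went both ways. LIMD1 fell by 0.18 ± 0.04 (adjusted p = 3.5e-03), and WTIP rose by 0.42 ± 0.11 (adjusted p = 8.2e-03), a call lost at 0.18 once values were adjusted for a trend in GC content and length of transcripts. AJUBA took 84.4% ± 0.541 of the length-scaled sum of the 3 genes in LHX2 libraries and 76.0% ± 0.151 in control libraries (SD, n = 3 each).

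The order of the 10 genes by level per length differed between the groups. In LHX2 libraries AJUBA stood first at 47.1 CPM per kb, followed by YAP1 at 41.6, CCN2 at 37.2, CCN1 at 16.6, AMOTL2 at 15.4, TEAD1 at 12.4, ANKRD1 at 10.0, LATS2 at 6.95, WWTR1 at 5.15 and AMOTL1 at 4.35. Of these neighbours CCN1 and AMOTL2 overlapped between libraries. In control libraries the order was YAP1 at 39.0, CCN2 at 31.7, AJUBA at 30.4, TEAD1 at 10.1, CCN1 at 9.87, AMOTL2 at 9.10, LATS2 at 5.78, WWTR1 at 4.33, AMOTL1 at 4.25 and ANKRD1 at 2.23. There CCN2 and AJUBA, TEAD1 and CCN1, CCN1 and AMOTL2, and WWTR1 and AMOTL1 overlapped. ANKRD1 was the last gene in control libraries and the seventh in LHX2 libraries.

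Genes whose profile over the 6 libraries lay closest to a target were sought among 9896 genes, by the root mean square distance of log2 CPM after each gene was centred. For CCN1 they were TNFAIP8L3 (distance 0.046), the tight junction gene CLDN6 (0.047) and ANXA1, which encodes annexin A1 (0.049), with log2 fold changes of 0.82, 0.79 and 0.75. For CCN2 they were PPP1R15A (0.027), SSBP3 (0.028) and DNAJC1 (0.029), with log2 fold changes of 0.19, 0.20 and 0.26. For ANKRD1 they were the zinc-finger gene CASZ1 (0.13), MAB21L2 (0.15) and the glucose transporter gene SLC2A2 (0.17), with log2 fold changes of 2.13, 2.04 and 2.304. With 2 groups of 3 libraries, genes with an equal size of change lie close by this measure.

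Other targets of YAP/TAZ were examined through a published set of 22 genes found across cancers, which holds 5 of the members. Of its 19 tested genes 11 were higher, 0 were lower and 8 did not pass in the edgeR test, with a median log2 fold change of 0.30, beside 16.6% higher and a median of 0.01 over all genes. At an unadjusted p under 0.05, 12 were higher and 1 lower, and DESeq2 called 11 higher and 0 lower. Without the 5 members, 6 of 14 were higher, 0 were lower and 8 did not pass, and the median was 0.27 (7 higher and 1 lower at an unadjusted p under 0.05). F3, which encodes tissue factor, rose by 1.48 ± 0.07, the kinase gene NUAK2 by 0.61 ± 0.11 and CRIM1, a transmembrane regulator of BMP ligands, by 0.53 ± 0.05 (SE). ASAP1 (-0.0045 ± 0.05) and NT5E, which encodes the ecto-nucleotidase CD73 (-0.04 ± 0.05), did not pass. AXL, FJX1 and FOXF2 were below the filter. Without LHX2 replicate 1 the gene IGFBP3 was called lower (-0.40, edgeR adjusted p = 0.022), against -0.29 with all libraries (adjusted p = 0.072). With all libraries it was also called lower when low counts were not filtered and with replicate number as a block.

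A further list held 30 genes reported elsewhere as targets in various cell types. The test covered 22, of which 10 were higher, 3 were lower and 9 did not pass, beside 16.6% higher and 15.8% lower over all genes tested, and their median was 0.15. FSTL1, a secreted follistatin-like protein, rose by 2.84 ± 0.10, the adhesion gene AMIGO2 by 1.33 ± 0.06, the endothelin gene EDN1 by 1.28 ± 0.14, the caveolin gene CAV1 by 1.21 ± 0.08, SLIT2 by 0.91 ± 0.05 and TNFRSF12A by 0.54 ± 0.09 (SE). The TGF-beta receptor gene TGFBR2 (-0.48 ± 0.04), DDAH1 (-0.37 ± 0.05) and the cyclin gene CCNA2 (-0.25 ± 0.04) fell. BIRC5, which encodes survivin, did not pass (0.01 ± 0.05). GGH did not pass either (0.18 ± 0.07, edgeR adjusted p = 0.053), but it was called higher under 6 of the 13 alternatives, DESeq2 and library totals alone among them, with values from 0.088 to 0.24 over all 13.

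CCN1, CCN2 and ANKRD1 are also described as genes that actin signalling controls through SRF and its MRTF cofactors, so a list of SRF/MRTF genes was set beside them. The test covered 16, of which 9 were higher, 1 was lower and 6 did not pass, beside 16.6% higher and 15.8% lower over all genes tested, and their median was 0.30. TAGLN (1.05 ± 0.26), the myosin light chain gene MYL9 (0.68 ± 0.14), the tropomyosin genes TPM4 (0.58 ± 0.04) and TPM1 (0.54 ± 0.04), FLNA, which encodes filamin A (0.48 ± 0.04), and the cofactor gene MRTFB (0.43 ± 0.06) rose (SE). TAGLN was low, at 1.08 ± 0.164 CPM in LHX2 libraries and 0.517 ± 0.108 CPM in control libraries (SD, n = 3 each). The actin genes ACTB (0.08 ± 0.05) and ACTG1 (0.06 ± 0.04) did not pass. TPM2 was lower (-0.16, adjusted p = 0.027), a call lost without LHX2 replicate 2 (adjusted p = 0.076), control replicate 1 (adjusted p = 0.12) or control replicate 2 (adjusted p = 0.16).

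**Figure D5:**
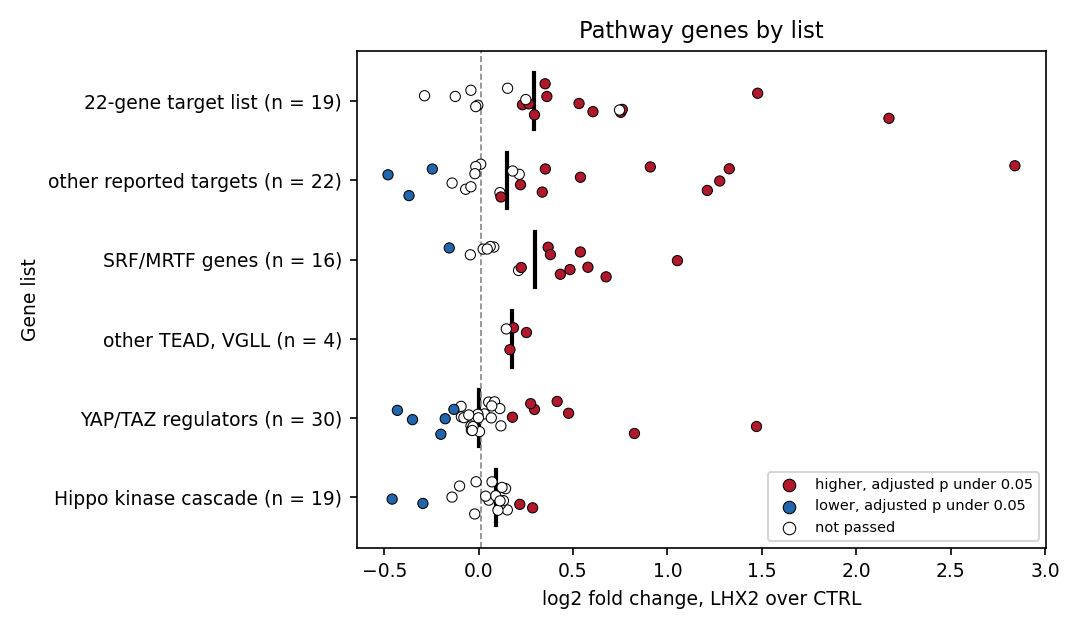
Log2 fold change of LHX2 over control for the tested genes of 6 pathway lists (points; red higher, blue lower, white not passed), with the list median as a bar and the median of all genes as a dashed line at 0.01. Points of the target and SRF/MRTF lists lie mostly to the right. Those of the kinase cascade list, which leaves out LATS2, lie around 0.

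The kinase cascade upstream of YAP was examined through a list that leaves out LATS2, which is among the 10 members and rose by 0.27. Among the 19 tested genes of this list 2 were higher and 2 were lower, beside 16.6% and 15.8% of all genes tested. The share higher was 10.5%, 15 genes did not pass, and the median was 0.09. MAP4K4, a kinase that can activate LATS, fell by 0.46 ± 0.04 (SE), to 280 ± 5.47 CPM in LHX2 libraries against 384 ± 12.3 CPM in control libraries (SD, n = 3 each). TAOK3 fell by 0.29 ± 0.06. RASSF5 (0.29 ± 0.10) and MAP4K3 (0.22 ± 0.06) rose. RASSF5 did not pass with DESeq2, with replicate number as a block, or once the length and GC trend was removed. Nor did it pass without LHX2 replicate 1 or 2 or control replicate 1 or 2. MAP4K3 did not pass without control replicate 2, which left 0 genes higher (edgeR). TAOK1 (0.14 ± 0.05, adjusted p = 0.058) and MOB1A (0.07 ± 0.04) were among those not passing, as were STK3, STK4, SAV1, LATS1 and NF2. TAOK1 was called higher without LHX2 replicate 3 (adjusted p = 0.010) or control replicate 3 (adjusted p = 0.026).

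Junction and polarity proteins, binding partners and other regulators of YAP and TAZ gave 7 higher, 5 lower and 18 not passing of 30, with a median of 0.0017. The share higher was 23.3%, near the 16.6% over all genes tested, of which 15.8% were lower. Besides AMOT and WTIP, the atypical cadherin gene DCHS1 (0.83 ± 0.10) and the polarity gene CRB3 (0.48 ± 0.15) were higher, the last not without LHX2 replicate 1 or 3 or control replicate 3. The atypical cadherin gene FAT4 (-0.35 ± 0.10), the kinase gene YES1 (-0.20 ± 0.04), LIMD1 and SLMAP (-0.13 ± 0.04) were among those lower. SLMAP did not pass with library totals alone, with replicate number as a block, or without LHX2 replicate 1 or control replicate 2 or 3. The 14-3-3 genes YWHAG (-0.04 ± 0.04) and YWHAE (-0.04 ± 0.05), whose proteins hold phosphorylated YAP in the cytoplasm, did not pass. CSNK1E had at most 1 count in any library and was not tested.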

How the data were processed

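RNA from 3 LHX2 and 3 control libraries of Huh7 cells was sequenced after a stranded mRNA library kit, per the labels' protocols. Per the submitters' processing notes, reads were counted with featureCounts 2.0.0 after alignment tools that include TopHat2 2.1.1 and Bowtie2 2.3.5.1, on GRCh38. Neither the annotation nor the strandedness of counting is given in the sources used here. The authors deposited raw read counts per gene, not normalized. One control column is named unlike the others, and its final digit matched it to control replicate 1. No 2 libraries were identical or as close as counting noise.

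Low counts were removed with edgeR 4.0.16 filterByExpr (at least 10 counts, 15 in total, proportion 0.7), libraries were scaled by TMM (factors 0.985 to 1.02), and groups were compared with the quasi-likelihood F-test in R 4.3.3, adjusted by Benjamini-Hochberg over 14533 genes at 0.05. SE come from the F statistic. The same fit was also run on counts simulated from the mean levels and dispersions of these data. PCR duplicates cannot be told from molecules here, so counting error is a lower limit. Lengths and GC are those of the longest GENCODE 29 transcript, positions and promoters those of RefSeq. Python 3.11.15, scipy 1.17.1 and matplotlib 3.10.9 were used.

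Alternatives were RLE factors, library totals alone, no filter, 1 CPM in 3 libraries, DESeq2 1.42.0, a replicate block, removal of a length and GC trend (loess, span 0.3, centred per library) and each library left out. The members and lists were chosen with earlier results of these data known. Named genes were the members, their paralogues, VGLL4, LHX2, the 3 closest profiles to CCN1, CCN2 and ANKRD1, and in each list up to 6 called genes with the largest changes and 2 abundant genes that did not pass. IGFBP3, TGFBR2, DDAH1, CCNA2, TPM2, YES1, SLMAP, PTPN14, CSNK1E and genes named by count alone were chosen after their values were seen. Some genes that this rule names are not reported here.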

Additional observations from a re-analysis of the deposited data

How the results depend on the processing

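All 8 members called higher kept that call under each of the 13 alternatives, and 0 members were called lower under any of them. YAP1 was also called with library totals alone (0.12) and ranged from 0.060 to 0.12 when 1 library was left out. AMOTL1 was -0.087 once the GC and length trend was taken out (not passed), and the cause was not tested. The genes called numbered 4716 (51.2% higher), 3549 to 4567 with 1 library left out, 4686 with library totals alone (59.8% higher) and 5096 without the length and GC trend (43.8% higher). Genes higher in the kinase cascade list (without LATS2) were 2, and 4 with library totals alone and 3 with every gene kept. They were 1 with the replicate block, the trend removed or DESeq2, and 0 to 3 with 1 library left out. Of the other TEAD and VGLL genes 3 were higher, and 1 to 3 with 1 library left out. Genes lower in the set of 22 targets were 0, and 1 without a filter, 1 with the replicate block and 0 to 1 with 1 library left out; of the SRF/MRTF genes 1 was lower, and 0 with library totals alone or the block and 0 to 1 with 1 library left out. FAT1, higher by 0.18, was -0.0044 after the trend was removed. In the 150 bases before the start alone, 2 members held the TEAD motif and 0 the loose AP-1 pattern.

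No shared deviation went with the replicate number: deviations of same-numbered libraries correlated at -0.056, -0.074 and -0.19 over genes. These values cannot show how the libraries were prepared. With the number as a replicate block 3768 genes and 8 members were called. Depth limits ANKRD1 most among the members.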

Other observations

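CCN1, CCN2, ANKRD1, LATS2 and AJUBA each had their highest value in replicate 1 of both groups. For CCN1 that was 42.6 CPM in LHX2 replicate 1 and 24.3 CPM in control replicate 1, and for ANKRD1 21.9 and 5.26 CPM. AJUBA led narrowly, with 205 against 203 CPM in LHX2 replicate 3 and 132 against 129.7 CPM in control replicate 3. How many of all genes tested share this pattern was not counted, and a shared effect of replicate 1 was not tested. YAP1, WWTR1, AMOTL1 and AMOTL2 did not share their highest replicate number between the groups, and TEAD1 had its highest value in replicate 2 of both, narrowly in the control group. Without LHX2 replicate 1 the log2 fold changes of CCN1 and ANKRD1 were 0.66 and 2.09.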
